A study of Mus musculus with 3 samples.

Results

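The mitochondrial ribosomal RNAs are the 2 RNAs of the mitochondrial ribosome that the mitochondrial chromosome itself encodes, out of 37 genes annotated on it. They are mt-Rnr1 (ENSMUSG00000064337.1, the 12S RNA of the small subunit, bases 70 to 1024 of chromosome M, plus strand) and mt-Rnr2 (ENSMUSG00000064339.1, the 16S RNA of the large subunit, bases 1094 to 2675, plus strand). The members were chosen by name and position, and together cover 2537 bases, or 15.6% of the chromosome. The data are RNA sequencing of ovulated mouse oocytes from 3 litters, which gave 1 library each and no other group. The oocytes came from superovulated females of mixed strain that were homozygous for a floxed Kdm1a (LSD1) allele and negative for the Zp3-Cre transgene, so all samples share the floxed allele and the series counts them as wild type. They were collected by embryonic day 0.5 and lysed, and total RNA was amplified by the isothermal single-primer method (SPIA) before library construction. The labels do not say how many females or oocytes each library pools. The defining markers of oocytes are nuclear genes and were not looked up here, since the annotation at hand is on another genome build than the files.

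As background, mitochondrial RNA is made as long transcripts that run through many genes. The mitochondrial ribosomal RNA genes lie next to each other near the start of such a transcript, each flanked by transfer RNA genes, and cutting out the transfer RNAs frees them. The 12S RNA carries the decoding site of the mitochondrial ribosome and the 16S RNA its peptidyl transferase centre, and together they serve the translation of the messenger RNAs encoded on the same chromosome. Oocytes hold a very large stock of mitochondria, which pass to the embryo through the mother.

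Much of what follows turns on a few stretches of mt-Rnr1. The first sequence is its 5′ end, where the litters differed most, and the others are the stretches with the highest depth. Capitals mark bases that were among the 10 most used leftmost alignment positions of that RNA, in litter 3 for the 1st and 2nd sequence and in litter 1 for the 3rd. Letters are the plus strand, 5′ to 3′, with T for U, taken from the GENCODE M21 transcript of the gene, which is built on GRCm38. They were read by position within the transcript, whose length of 955 bases equals the gene span given above in mm9. No mm9 sequence was at hand, so identity of the letters between the builds was assumed.
mt-Rnr1, 5′ end, chrM:70-119: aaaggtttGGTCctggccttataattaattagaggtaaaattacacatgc
mt-Rnr1, highest in litter 3, chrM:220-319: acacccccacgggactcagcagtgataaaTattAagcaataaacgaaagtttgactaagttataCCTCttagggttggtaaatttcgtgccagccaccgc
mt-Rnr1, highest in litters 1 and 2, chrM:570-669: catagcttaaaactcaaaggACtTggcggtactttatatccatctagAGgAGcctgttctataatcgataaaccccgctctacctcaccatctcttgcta

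Each deposited value is the number of alignments over a base. A level is given here as the mean of that depth over the bases of a gene or bin, divided by the library's alignments in units of 1e6. The unit is written CPM, alignments over a base per 1e6 in the library. The libraries held between 31787887 and 35183199 alignments of 72 bases, of which 1.65%, 1.41% and 3.12% lay on the mitochondrial chromosome in litters 1, 2 and 3. Litter 3 thus stood apart in its mitochondrial share before any gene was considered. Errors are the SD over 3 litters, and with a single group no comparison between conditions could be tested. With 3 litters an exact sign-flip test, two-sided, cannot give a p under 0.25. Fewer mitochondria, a different mix of cells and less RNA per mitochondrion cannot be told apart in such a bulk level, which is relative to the library total.

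mt-Rnr1 was the more variable of both RNAs. Its level was 139.0 CPM in litter 1, 109.8 in litter 2 and 426.1 in litter 3, and the mean was 225.0 ± 174.8 CPM (SD, n = 3). Litter 3 lay 3.07-fold above litter 1 and 3.88-fold above litter 2, and litter 2 stood at 0.790-fold of litter 1. Without litter 3 the mean was 124.4 CPM. The median over the bases of the gene was 81.9, 67.2 and 204.8 CPM in litters 1, 2 and 3, a smaller excess of litter 3 over litter 1, at 2.50-fold, than in the mean. Of the 72-base alignments, 64957, 46339 and 181089 had their midpoint in mt-Rnr1.

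mt-Rnr2 was steadier. Its level was 166.2 CPM in litter 1, 181.9 in litter 2 and 266.1 in litter 3, and the mean was 204.8 ± 53.7 CPM (SD, n = 3). Litter 3 was again the highest, at 1.601-fold of litter 1 and 1.46-fold of litter 2. The median over its bases was 118.4, 134.2 and 146.8 CPM, a range of 1.24-fold between the highest and the lowest litter. The highest single base reached 1111, 1166 and 1125 CPM in litters 1, 2 and 3, which spans only 1.05-fold. The peak of mt-Rnr2 was thus nearly as high in every litter while its mean was not.

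The direction of litter 3 in mt-Rnr2 depended on what the depth was scaled to. As a share of mitochondrial depth, mt-Rnr1 held 11.2% in litter 1, 10.3% in litter 2 and 18.1% in litter 3, which stayed the highest (mean 13.2% ± 4.27, SD, n = 3). mt-Rnr2 held 22.2% in litter 1, 28.4% in litter 2 and 18.8% in litter 3 (mean 23.1% ± 4.88, SD, n = 3). Litter 3, the highest in CPM, was thus the lowest per mitochondrial alignment. Both RNAs together held 33.4%, 38.7% and 36.9% of mitochondrial depth in litters 1, 2 and 3 (36.3% ± 2.72, SD, n = 3), with no litter far from the others. They held 0.550%, 0.545% and 1.15% of all alignments.

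The 12S to 16S ratio, the mean depth of mt-Rnr1 over that of mt-Rnr2 within a library, does not depend on the scaling. It was 0.836 in litter 1, 0.603 in litter 2 and 1.601 in litter 3, with a mean of 1.01 ± 0.522 (SD, n = 3). mt-Rnr1 was thus the lower of both RNAs in litters 1 and 2 and the higher in litter 3, and the mean near 1 describes none of the litters. Counted by midpoints, mt-Rnr1 took 33.6% of the alignments of both RNAs in litter 1, 26.7% in litter 2 and 49.2% in litter 3. The exact Clopper-Pearson 95% intervals ran from 33.4% to 33.8%, from 26.5% to 26.9% and from 49.02% to 49.3%. The intervals do not overlap, but they cover counting error only, and the files do not tell amplification copies from separate molecules. Other ways of taking the ratio kept litter 3 the highest in 8 of 11 cases. The exceptions were each start position counted once, where the ratio was 1.02, 0.976 and 0.947 in litters 1, 2 and 3, and leaving out either the first 300 bases of mt-Rnr1 or the bases before the midpoint of each gene, given further on. Counting each start position once caps a base at 1 start. Between 86.1% and 92.7% of the bases of either gene were used in each litter, so that ratio can register little difference in level.

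**Figure D1:**
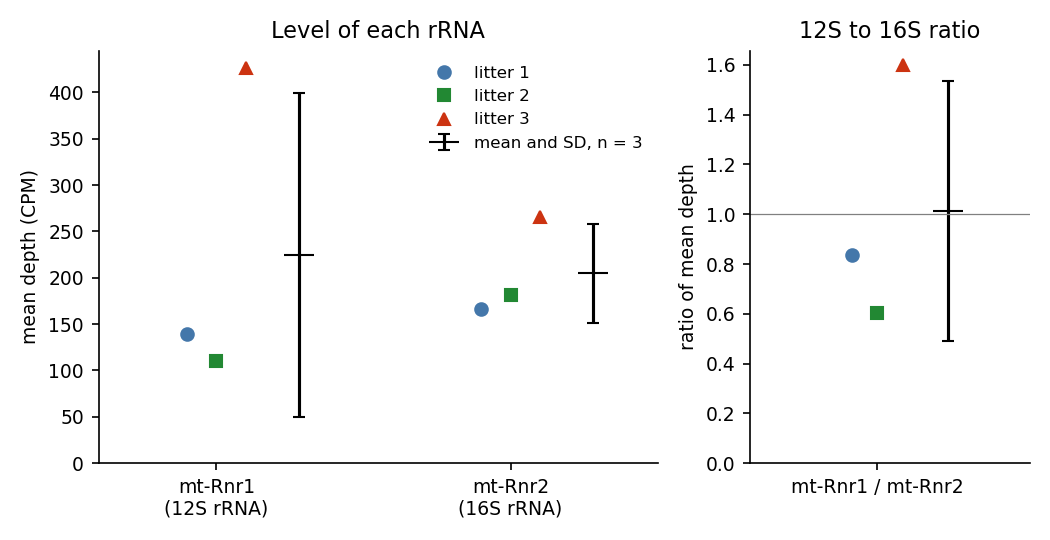
Mean depth in CPM of mt-Rnr1 and mt-Rnr2 (left) and the ratio of mt-Rnr1 to mt-Rnr2 (right), with 1 point per litter and the mean with its SD (n = 3) as a black bar. Litter 3 is the highest for both RNAs in CPM, though not for mt-Rnr2 as a share of mitochondrial depth, and at 1.601 is the single litter with a ratio above 1.

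The profile along mt-Rnr1 was nearly the same in litters 1 and 2 and different in litter 3. In litters 1 and 2 the highest of 19 bins of 50 bases lay at bases 620 to 669, at 483.6 and 375.1 CPM, inside the 3rd stretch printed above. Litter 3 had 476.1 CPM there, between the other litters. Its own highest bin lay at bases 270 to 319, at 1596 CPM, where litter 1 had 342.9 and litter 2 had 301.3. This bin ends the 2nd stretch printed above and holds the letters GTGCCAG, the start of the conserved loop of the small-subunit decoding centre, found once in mt-Rnr1 from base 306 and nowhere on its other strand. Depth over those 7 bases was 265.7, 237.7 and 1309 CPM in litters 1, 2 and 3.

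The excess of litter 3 in mt-Rnr1 lay mostly in its first 300 bases, a segment chosen after the profile was seen. Over bases 70 to 369 the depth was 179.9 CPM in litter 1, 146.2 in litter 2 and 1013 in litter 3, or 5.63-fold of litter 1 and 6.93-fold of litter 2. Over the remaining bases, 370 to 1024, it was 120.3, 93.1 and 157.4, or 1.31-fold and 1.69-fold. Bins there were uneven, with litter 3 from 0.118-fold of litter 1 at bases 920 to 969 to 3.89-fold at bases 770 to 819. Against litter 2 the same bins gave 0.160-fold and 4.63-fold. The first 300 bases held 40.6% of the gene's depth in litter 1, 41.8% in litter 2 and 74.7% in litter 3. Without them the 12S to 16S ratio was 0.724, 0.511 and 0.592 in litters 1, 2 and 3, so that litter 3 lay between the other litters. With the bases from the midpoint of each gene on, it was 0.570, 0.416 and 0.493, again with litter 3 in between. In the same terms, mt-Rnr1 had 1.101, 1.03 and 0.274 times the depth after its midpoint that it had before it.

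**Figure D2:**
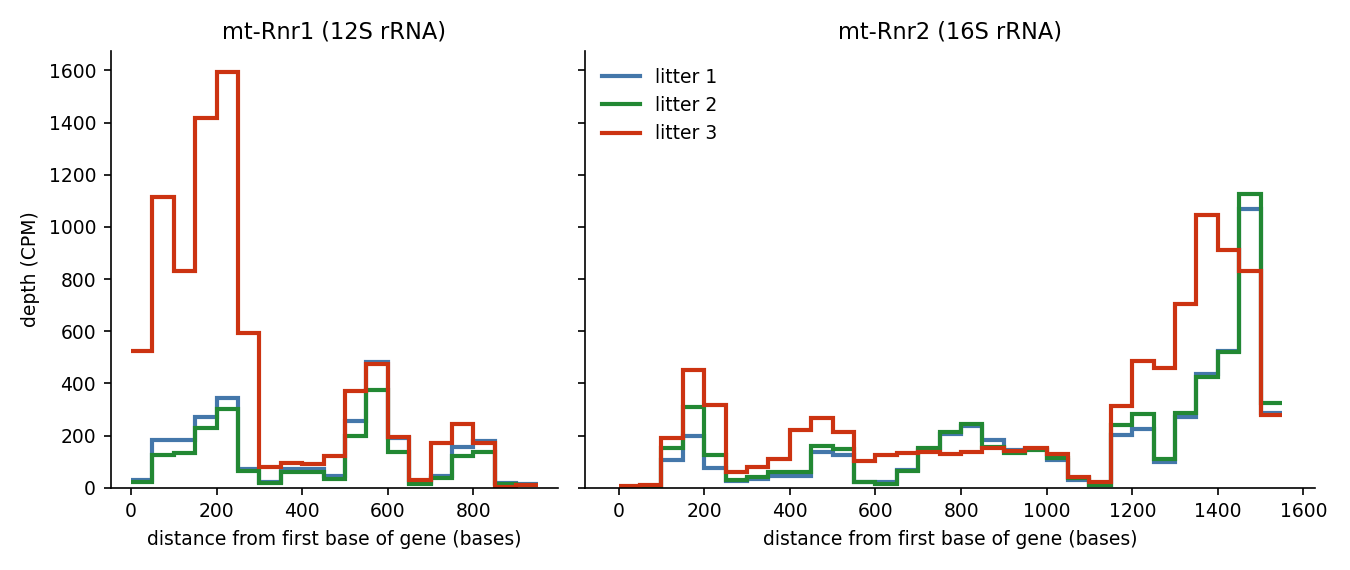
Depth in CPM, in bins of 50 bases against the distance in bases from the first base of mt-Rnr1 (left) and mt-Rnr2 (right), with 1 line per litter. Litter 3 stands far above the others over the first 300 bases of mt-Rnr1, and near the end of mt-Rnr2 its highest bin lies before that of litters 1 and 2.

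The difference was steepest at the 5′ end. The first 50 bases of mt-Rnr1 had 29.0 CPM in litter 1, 20.998 in litter 2 and 525.5 in litter 3, or 18.1-fold and 25.03-fold. Within the first 20 bases, 1125, 758 and 17641 alignments had their leftmost base. In litter 3 the bases 78 to 81, the capitals of the 1st sequence, were among the 10 most used. Base 79 alone was the leftmost base of 3804 alignments in litter 3, against 158 in litter 1 and 124 in litter 2. The most used base of all in litter 3, base 286, had 3962 alignments there, against 187 and 160. A read from either strand is placed by its leftmost base, so such a base is the 5′ end of a plus-strand read or the 3′ end of a minus-strand read.

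The most used positions of litters 1 and 2 were others. Base 591 led in both, with 1002 alignments in litter 1 and 696 in litter 2, and litter 3 had 714 there. Of the 10 most used bases of mt-Rnr1, litters 1 and 2 shared 9, while each shared 1 with litter 3. No single base dominated, as the 10 most used held 13.3%, 12.96% and 16.6% of the alignments starting in the gene. A large part of the gene was sampled in every library: 864, 824 and 854 of its 955 bases were used as a leftmost base. A used base was the leftmost base of 75.4, 56.3 and 211 alignments on average.

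The last 2 complete bins of mt-Rnr1 were poorly covered in every litter, and here litter 3 was the lowest. Bases 920 to 969 had 17.9, 13.2 and 2.11 CPM in litters 1, 2 and 3, the lowest bin of litter 3. Its ratio to litter 1 there was 0.118 and to litter 2 0.160, the single bin of 19 in which litter 3 was less than 0.5-fold of either. Bases 970 to 1019, the lowest bin of the other litters, had 14.3, 10.1 and 9.47 CPM. Of the 19 bins, 15 were highest in litter 3, 4 in litter 1 and 0 in litter 2. Litter 2 was below litter 1 in all 19, between 0.693-fold and 0.974-fold.

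mt-Rnr2 was covered most deeply towards its 3′ end. Its last 300 bases, a segment also chosen after the profile was seen, held 50.7%, 48.2% and 47.7% of its depth in litters 1, 2 and 3 (48.9% ± 1.58, SD, n = 3). The bases from its midpoint on had 3.33, 2.80 and 2.32 times the depth of those before. The highest bin of litters 1 and 2 lay at bases 2544 to 2593, at 1068 and 1128 CPM, and litter 3 had 830.6 there.

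In litter 3 the highest bin of mt-Rnr2 lay 100 bases before that of the others. Bases 2444 to 2493 had 1047 CPM in litter 3, against 436.9 in litter 1 and 424.5 in litter 2. The peak base was 2562 in both litters 1 and 2 and 2448 in litter 3. The most used leftmost base was nevertheless the same in all litters, base 2525, with 3411, 3319 and 3158 alignments. The 10 most used bases of mt-Rnr2 were the same in litters 1 and 2, and 4 of them were also among those of litter 3. They held 15.7%, 15.3% and 10.8% of the alignments starting in the gene.

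The 5′ end of mt-Rnr2 was almost bare. Its first 50 bases had 0.4997, 0.308 and 5.30 CPM in litters 1, 2 and 3, from mean raw depths of 17.6, 9.80 and 169.6 alignments. This was the lowest bin of the RNA in every litter, and its depth was 10.6-fold of litter 1 and 17.2-fold of litter 2 in litter 3. Depth was far higher at bases 1194 to 1243, with 105.0, 152.6 and 190.4 CPM. In the middle of the gene the litters came close, and bases 1794 to 2143 had ratios of litter 3 to litter 1 from 0.580 to 1.24. Bases 1894 to 1943 gave the lowest ratio, with 236.9, 244.8 and 137.5 CPM in litters 1, 2 and 3. Of 31 bins, 24 were highest in litter 3, 5 in litter 2 and 2 in litter 1.

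**Figure D3:**
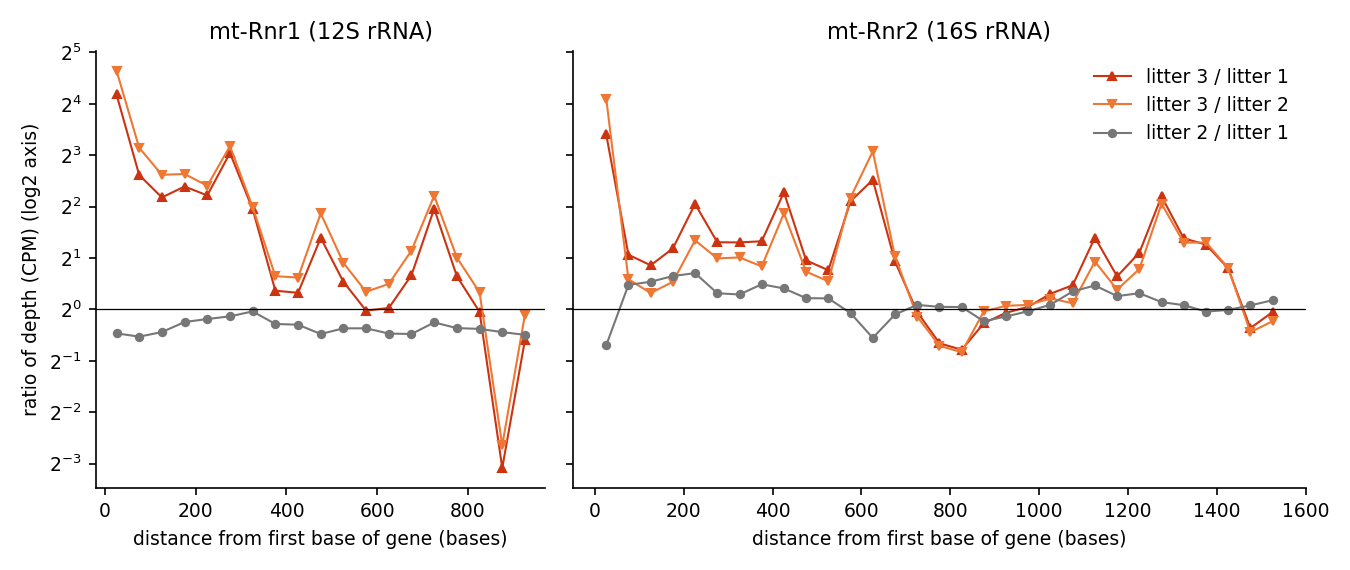
Ratio of depth in CPM between litters in each bin of 50 bases (log2 axis) against the distance in bases from the first base of each gene. Litter 3 over litter 1 reaches 18.1 at the start of mt-Rnr1 and 0.118 near its end, while litter 2 over litter 1 stays between 0.617 and 1.63 in both genes.

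A stretch inside mt-Rnr2 had start counts that recurred at a nuclear place, though no sequences were compared. Runs of 3 neighbouring start positions with identical counts in all litters recurred on chromosome 10, as reads reported at several places would. The runs began at bases 1643 to 1717 in mt-Rnr2, so that the last position in a run was 1719, and at bases 95540250 to 95540324 on chromosome 10 (mm9). The 52 recurring start positions, out of 1509 in mt-Rnr2, held 1.098% of its alignments. No start position of mt-Rnr1 recurred, out of 749 deep enough to look at. The bins at bases 1644 to 1743 overlap that stretch, and there litter 3 had 101.6 and 126.4 CPM, against 23.6 and 22.02 in litter 1 and 22.5 and 15.0 in litter 2. Whether those reads come from mitochondrial or nuclear RNA was not tested. Without these positions the 12S to 16S ratio was 0.841, 0.605 and 1.63.

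Correlations describe how alike the profiles were between litters. Over the 19 bins of mt-Rnr1, Pearson's r of log2 CPM was 1.00 between litters 1 and 2, 0.76 between 1 and 3, and 0.77 between 2 and 3. Spearman's rho for the same pairs was 0.98, 0.76 and 0.76. Over the 31 bins of mt-Rnr2 r was 0.99, 0.90 and 0.89, and rho 0.98, 0.80 and 0.83. Neighbouring bins share alignments and all bins of a litter share 1 library, so these are descriptions without a test. Bins with more G and C tended to be deeper, with r of 0.43 between GC content and log2 mean depth in mt-Rnr1 and 0.48 in mt-Rnr2, over GC contents from 14% to 50% and from 20% to 50%. The part of base composition in the profiles was not tested. The RNAs hardly differ in it as a whole, with 35.8% and 35.4% GC.

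Relative to the mean depth of the whole gene, few alignments crossed most borders with the transfer RNA genes. That mean can differ much from the depth beside a border, so a small share does not by itself make a border sharp. Alignments that cover both sides of a border were counted, with at least 1 base on each side. At the border between mt-Tf, the phenylalanine transfer RNA gene, and mt-Rnr1, 40, 17 and 791 alignments crossed in litters 1, 2 and 3. That is 0.818%, 0.487% and 5.80% of the mean depth of mt-Rnr1. With at least 10 bases required on each side 14, 2 and 19 were left, so most alignments in litter 3 that crossed began within 10 bases of the border. As a share of depth litter 3 was then not the highest, at 0.286%, 0.0573% and 0.139% in litters 1, 2 and 3, nor was it with the border moved 25 bases upstream, at 0.204%, 0.0573% and 0.125%. An alignment cannot run over the end of the linearised chromosome, which starts with mt-Tf, so reads further upstream could be lost.

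At the border between mt-Tv, the valine transfer RNA gene, and mt-Rnr2, 41, 24 and 416 alignments crossed in litters 1, 2 and 3, or 0.701%, 0.415% and 4.88% of the mean depth of mt-Rnr2. Here 31, 15 and 365 were left with 10 bases on each side. Litter 3 was 11.1-fold above litter 1 and 17.2-fold above litter 2 in crossing alignments per 1e6, further apart than in the mean depth of the gene. The litters were about as far apart in depth beside the border, at 10.6-fold and 17.2-fold over the first 50 bases of mt-Rnr2. Only 11, 11 and 95 alignments had their leftmost base in those 50 bases, so that depth came mostly from the crossing alignments themselves. A rise in crossing beyond the local depth was thus not shown. The same order of litters held at the annotated border of mt-Rnr2 with mt-Tl1, a leucine transfer RNA gene, where 18, 9 and 155 crossed and 17, 7 and 140 remained with 10 bases on each side. The Poisson 95% intervals of 10.7 to 28.4, 4.12 to 17.1 and 131.6 to 181.4 alignments separate litter 3 from both others, for counting error only. With this border moved 25 bases downstream the crossing alignments were 8.31%, 4.41% and 6.29% of gene depth in litters 1, 2 and 3. Moved upstream they were 46.4%, 53.03% and 48.7%. As a share of gene depth, litter 3 was thus highest only at the annotated one of these 3 positions. Gene depth was itself highest in litter 3, so this order holds for the share and not for crossing alignments per 1e6.

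The 3′ border of mt-Rnr1 behaved otherwise. Between mt-Rnr1 and mt-Tv, 637, 392 and 447 alignments crossed in litters 1, 2 and 3, which was 13.02%, 11.2% and 3.28% of the mean depth of the gene. Most reached well over the border, with 618, 378 and 398 left at 10 bases on each side. Per 1e6 alignments of the library the litters were close, at 18.1, 12.3 and 13.96. In that unit, the higher crossing of litter 3 at the other annotated borders thus did not extend here. Bases 970 to 1019, the last complete bin of mt-Rnr1, had a mean of 14.3, 10.1 and 9.47 CPM, below the crossing alignments in every litter. That mean is over bases short of the border. Depth at the border itself includes every crossing alignment and cannot be lower than their number. Depth over mt-Tv was 9.18, 6.12 and 16.2 CPM (10.5 ± 5.16, SD, n = 3), over mt-Tl1 19.5, 12.3 and 20.9 (17.6 ± 4.61) and over mt-Tf 0.240, 0.0537 and 0.832 (0.375 ± 0.406). All lay far below both ribosomal RNAs in every litter. Alignments of 72 bases are longer than mt-Tf (68 bases) and mt-Tv (69) and nearly as long as mt-Tl1 (75). Low depth over these genes is thus set in part by alignment length and does not measure the transfer RNAs.

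Among the genes of the chromosome, both ribosomal RNAs stood above all 13 messenger RNA genes in each litter. The messenger RNAs ranged from 9.03 to 109.4 CPM in litter 1, from 7.06 to 81.4 in litter 2 and from 7.10 to 224.0 in litter 3, so in litter 3 the upper end came near mt-Rnr2 at 266.1. By the mean over litters mt-Cytb, which encodes cytochrome b of complex III, was the highest messenger RNA with 129.0 ± 59.8, and mt-Nd3, a complex I subunit, the lowest with 7.73 ± 1.13 (SD, n = 3). In litter 3, however, mt-Cytb had 196.1 CPM, below mt-Nd4l with 224.0 and mt-Co1 with 215.7, and the mean of mt-Co1 over litters was 125.1, a difference from mt-Cytb well within the SD. mt-Nd1, the complex I subunit gene next to mt-Tl1, had 57.5, 41.8 and 78.2 in litters 1, 2 and 3. It is thus well below mt-Rnr2, from which only a transfer RNA gene separates it. The median of the 22 transfer RNA genes was 0.806, 0.422 and 1.74 CPM. These genes are 59 to 75 bases long and alignments 72, so that median does not measure the transfer RNAs.

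mt-Rnr1 and mt-Rnr2 differed in how they changed between litters 1 and 2. mt-Rnr1 was lower in litter 2, at 0.790-fold of litter 1, as were all 13 messenger RNAs, at 0.727-fold to 0.857-fold. mt-Rnr2 was higher in litter 2, at 1.09-fold, and was alone in this among the 15 genes. In CPM, litter 3 was 3.07-fold of litter 1 for mt-Rnr1, against a median of 1.48 over the messenger RNAs, of which only mt-Nd4l lay above it. For mt-Rnr2 the ratio of 1.601 was exceeded by 6 of 13.

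The genes most like each member over the litters were found by the smallest root mean square difference of log2 levels centred on their own mean, over only 3 litters. For mt-Rnr1 they were mt-Co1, a complex IV subunit (86.0, 73.7 and 215.7 CPM in litters 1, 2 and 3, difference 0.17), and mt-Nd4l, a complex I subunit (54.8, 43.7 and 224.0, difference 0.19). For mt-Rnr2 they were mt-Atp8, an ATP synthase subunit (26.7, 22.7 and 46.7, difference 0.21), and mt-Co2, a complex IV subunit (74.4, 55.5 and 94.4, difference 0.23). Of the alignments of mt-Nd4l, 99.8% recurred on a nuclear chromosome, as did 99.04% of those of mt-Atp8, 99.4% of mt-Co2 and 40.9% of mt-Co1. For mt-Rnr1 the share was 0%.

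**Figure D4:**
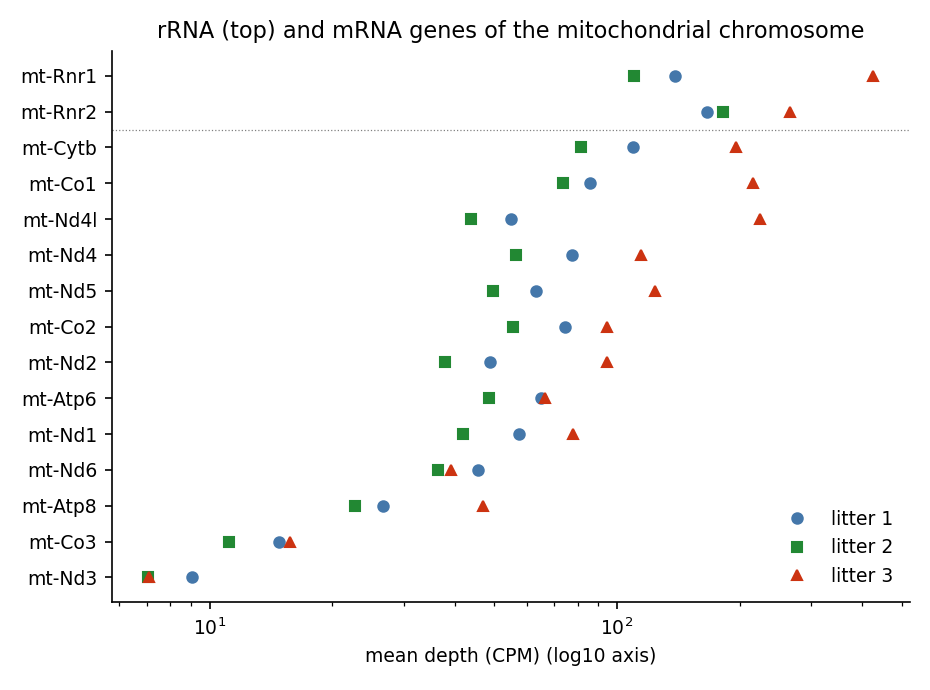
Mean depth in CPM (log10 axis) of the 2 ribosomal RNA genes, above the dotted line, and of the 13 messenger RNA genes, with 1 point per litter. Both ribosomal RNAs lie above all messenger RNAs of the same litter, and mt-Rnr2 is the single gene with litter 2 above litter 1.

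The ratios between litters also varied along each gene, and how the ribosomal RNAs compared with the messenger RNAs depended on the measure. The SD over bins of log2 litter 3 over litter 1 was 1.62 for mt-Rnr1 and 0.98 for mt-Rnr2, above all 13 messenger RNAs, which ranged from 0.19 to 0.94. Against litter 2 it was 1.58 and 1.05, with 0.16 to 0.98 for the messenger RNAs. Between litters 2 and 1 it was 0.14 for mt-Rnr1, below all 13, and 0.31 for mt-Rnr2, above 12. By Pearson's r of log2 CPM over bins both ribosomal RNAs lay within the range of the messenger RNAs. The mean r with litter 3 was 0.77 for mt-Rnr1, with mt-Nd2 at 0.63 and mt-Co3 at 0.70 below it, and 0.90 for mt-Rnr2, with 8 of the 13 messenger RNAs below it and a messenger RNA median of 0.88. Between litters 1 and 2 the r of mt-Rnr1 was above that of 12 messenger RNAs and below that of mt-Atp8. Some messenger RNAs have as few as 4 bins, and these values have no replicate check, as each is a ratio of single libraries.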

How the data were processed

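The alignment used Bowtie and mm9, per the submitters' processing notes; version, filters and handling of multiple placements are not given in the sources. The authors deposited 1 coverage signal track per library, unscaled and without strand, from lanes 3, 4 and 8 per the file headers, so lane and litter cannot be told apart. Isolated blocks of depth 1 were 72 bases long in 99.9% of cases. Alignments per start position were rebuilt from steps in depth, with 0 negative values, and this was tested on simulated data. Gene positions came from GENCODE M21 (GRCm38). Bins of 50 bases start at each gene's first base and leave out the last, incomplete bin; SDs of log2 ratios over bins used CPM + 0.01. Recurring runs had at least 50 alignments over 3 start positions. Start counts gave a chi-square per degree of freedom of 74.4 or more for each pair of litters, so these count as separate libraries, whose spread may still be technical. Named genes are the members, their neighbours, the highest and lowest messenger RNA and the 2 messenger RNAs most like each member. Members, measures and lists were chosen with earlier results of these data known. Python 3.11.15, numpy 2.4.6, scipy 1.17.1 and pandas 2.3.3 were used. The sequence of mt-Rnr2 is not reported here.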

Additional observations from a re-analysis of the deposited data

How the results depend on the processing

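Of 85 alternatives, 70 left a mean within 1 SD over the litters. This count is a weak check. It includes 30 that left out 1 litter, and with 3 litters those could not move a level, ratio, share or border value by 1 SD. The SD is also wide where litter 3 stands apart. The level of mt-Rnr1 without its first 300 bases, 123.6 against 225.0 CPM, thus counted as within it. Leaving out the first 300 bases of mt-Rnr1, the bases before the midpoints or recurring positions was chosen after seeing the data. With each start position counted once, the level was 12.97 for mt-Rnr1 and 13.2 for mt-Rnr2. These are per 1e6 distinct start positions of the library, a unit other than the CPM used elsewhere. The share of mitochondrial alignments was then 17.2%. Crossing alignments were 19.6%, 96.3%, 35.9% and 29.9% of gene depth at the 4 borders in order along the chromosome. This way of counting caps a base at 1 start. mt-Rnr2 was 308.7 CPM without the 100 highest nuclear windows, a smaller total, and 133.1 as a median over bases. A border shifted by 25 bases gave 60.6% after mt-Tf (downstream) and 49.4% (upstream) and 6.34% (downstream) at mt-Tl1. Between mt-Tv and mt-Rnr2 the shifts gave 2.73% (upstream) and 0.366% (downstream), against 2.00%. The values at these borders thus rest on exact positions, while between mt-Rnr1 and mt-Tv the shifts gave 8.42% and 8.38%, against 9.18%. As a share of gene depth, the order of the litters changed at mt-Tl1 in both shifts and after mt-Tf in the upstream one. Without 72 bases at either end, mean r between litters was 0.86 in mt-Rnr2, against 0.93 with them. The cause was not tested beyond the alternatives' construction.

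Leaving out each litter in turn gave 124.4 to 282.6 for mt-Rnr1, 174.1 to 224.0 for mt-Rnr2, 0.720 to 1.22 for the 12S to 16S ratio, 35.1% to 37.8% for the share, a mean r of 0.76 to 1.00 in mt-Rnr1 and 0.89 to 0.99 in mt-Rnr2, and crossing alignments of 0.653% to 3.31%, 7.26% to 12.1%, 0.558% to 2.79% and 0.232% to 1.06% at the 4 borders. Without litter 3 the level of mt-Rnr1 fell to 124.4 and the ratio to 0.720, and r was the highest for both RNAs. Scaled by median-of-ratios factors, litter 3 was still the highest for both RNAs, at 424.0 and 264.8. No paired analysis was possible because all samples belong to 1 group. Depth limits the borders and the 5′ end of mt-Rnr2, where few alignments remain.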
